A study of Mus musculus with 6 samples.

Results

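The genes of the BCL2 family and of the PIM survival kinases were examined in mouse CD4+ T cells that lacked Cul5, the cullin scaffold of a family of ubiquitin ligases. The 10 genes were chosen by name: the anti-apoptotic Bcl2, Bcl2l1 and Mcl1, the pore-forming effectors Bax and Bak1, the BH3-only genes Bcl2l11, Bbc3 and Pmaip1, and the kinases Pim1 and Pim2. All 10 were among the 11242 entries of the gene-level table and among the 12925 genes tested for a difference between the genotypes.

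RNA was sequenced from 6 cultures of naive CD4+ T cells, 3 labelled WT and 3 labelled Cul5 cKO, all on the C57BL/6 strain. WT cells came from littermates that carried the floxed Cul5 alleles (Cul5fl/fl) without Cre, and Cul5 cKO cells from Cul5fl/fl CD4-Cre mice, in which the CD4 promoter drives Cre in developing thymocytes, so that CD8 T cells lose the gene as well. Mice were 8 to 10 weeks old, and cells from spleen and lymph nodes were enriched with magnetic beads. Both genotypes were then activated through CD3 and CD28 and held under Th9 conditions, that is IL-4 and TGF-β with a blocking antibody to IFN-γ, for 48 h. The labels do not say whether the 3 samples of a genotype came from separate mice, so the spread between them may in part be technical.

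Survival of an activated T cell depends on the balance between members of the BCL2 family at the outer mitochondrial membrane. BCL2, BCL-XL (the product of Bcl2l1) and MCL1 hold the effectors BAX and BAK in check. The BH3-only proteins BIM (Bcl2l11), PUMA (Bbc3) and NOXA (Pmaip1) bind the guardians and release the effectors, and BIM is the main killer of T cells deprived of cytokine. PIM1 and PIM2 are serine/threonine kinases with no separate activation step, so that their activity follows their abundance. They are induced through STAT proteins downstream of cytokine receptors and phosphorylate the BH3-only protein BAD and regulators of translation and the cell cycle. Much of the control of MCL1, NOXA and BIM is exerted on the protein, which was not measured here.

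Promoter sequence was searched for the letters that STAT and FOXO factors recognise, since cytokine signals induce PIM genes through STATs and FOXO factors induce Bcl2l11 and Bbc3 in resting T cells. RefSeq (GRCm38.p6) listed 15 promoters for 9 of the 10 genes, and the 250 bases before each start were read on both strands. Neither spacing of the STAT motif, TTCNNNGAA or TTCNNNNGAA, was found in them, against 7.02% and 5.85% of all 32851 listed promoters. The FOXO motif GTAAACA, read as TGTTTAC on the other strand, was present in 3 promoters of 3 genes and in 3.17% of all listed promoters. The 3 stretches are shown with the motif in capitals. The Bcl2l11 stretch lies upstream of the annotated gene, and the other 2 lie in introns of longer transcripts, upstream of an internal start.
Bcl2l11, chr2:128125800-128125828, plus strand, motif at -227 to -221 from the start: aagacactaggGTAAACAcgccggggtgg
Bbc3, chr7:16310083-16310111, plus strand, motif at -167 to -161: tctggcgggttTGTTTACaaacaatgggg
Pim1, chr17:29493004-29493032, plus strand, motif at -70 to -64 from the second listed start: ccccaaagtttGTAAACAggaatcacgtg

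The Pim2 promoter, that of the 1 gene of the 10 that passed the test between the genotypes, held none of these letters. On reading it, 2 copies of the octamer ATGCAAAT, the recognition letters of OCT factors, were seen, read as ATTTGCAT on the other strand, at -202 to -195 and at -123 to -116. The octamer was looked for only after the bases had been read. At least 1 copy was present in 1.60% of all listed promoters and 2 or more copies in 32 of them, or 0.0974%. The stretch that holds both lies upstream of the annotated gene and is shown with the octamers in capitals. These matches describe letters, and binding was not measured.
Pim2, chrX:7878093-7878201, plus strand: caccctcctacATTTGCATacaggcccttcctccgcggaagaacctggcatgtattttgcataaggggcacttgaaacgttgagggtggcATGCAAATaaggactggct

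The libraries held 3944803 to 23454552 estimated counts, and WT replicate 3 was the shallow one. Cul5 was at 64.4, 69.3 and 65.0 CPM (counts scaled to library size) in the WT samples and at 10.6, 14.2 and 13.1 CPM in the Cul5 cKO samples, as the labels state (log2 fold change -2.39, SE 0.11, adjusted p = 0.000992, edgeR's quasi-likelihood test). Replicate 1 of both genotypes stood apart from replicates 2 and 3 for several genes described here. Summed CPM of 10 CD4 T cell markers was 2867 to 3333 in WT and 3373 to 4216 in Cul5 cKO, and without Il9, the cytokine gene of the Th9 state, the sums overlapped (2511 to 3026 and 2645 to 3195 CPM). The markers did not move together. Il9 and Lat were higher in Cul5 cKO without overlap, while 6 of the 10 were lower without overlap, among them Cd28 (mean 111 against 49.2 CPM), Cd3e (156 against 123 CPM), Cd3g (112 against 88.2 CPM) and Cd3d (94.4 against 86.5 CPM), and Cd4 and Irf4 overlapped. Over all genes tested, 27.5% did not overlap. Irf4, at 729 to 1429 CPM, was the largest single part of the sums without Il9. Of the B cell markers, 5 of 5 were found and their sum was 15.1 to 19.2 CPM in WT and 6.47 to 48.0 CPM in Cul5 cKO, with the highest value in Cul5 cKO replicate 3. CD8 T cell markers (2 of 2 found) reached 11.6 CPM in that library and 4.30 to 6.53 CPM elsewhere. Myeloid markers (5 found, Cd14 at or under the floor of 3 counts) stayed at 2.56 to 11 CPM, NK markers (4 found, Ncr1 and Klra8 at 0) at 4.10 to 13 CPM and erythroid markers (5 found) at 0 to 2.54 CPM. In such bulk samples fewer cells of a type and less RNA per cell cannot be told apart.

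Of the 10 genes, 1 passed the test between the genotypes at an adjusted p under 0.05 (edgeR's quasi-likelihood test, Benjamini-Hochberg adjustment over all 12925 genes), and it was Pim2, which was lower in Cul5 cKO. Over all genes tested, 1.03% passed, 0.418% lower and 0.611% higher. An unadjusted p under 0.05 was reached by 3 of the 10 genes, Pim2, Pim1 and Bcl2, and by 21.3% of all genes. The 3 Cul5 cKO values lay wholly on one side of the 3 WT values for 5 of the 10 genes, above for Pim1 and Bax and below for Pim2, Bcl2 and Bbc3, against 27.5% of all genes. The same 5 genes were also separated in the gene-level log2 CPM table that the study deposited. Fitted changes were above 0 for 5 genes and below 0 for 5, with a median of -0.0017 on the log2 scale against -0.0068 over all genes tested. An exact permutation test of 3 against 3 samples cannot give a two-sided p below 0.1.

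**Figure D1:**
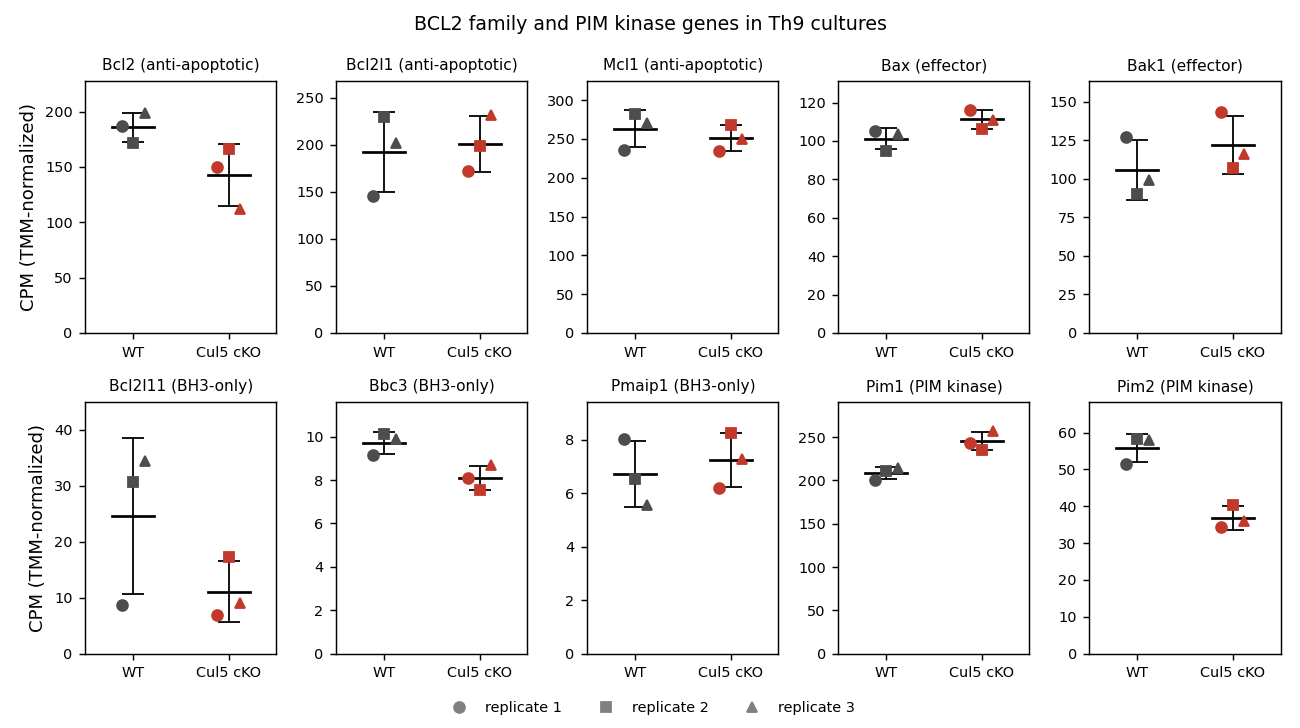
TMM-normalized CPM (linear axes from 0) of the 10 genes in the 3 WT (grey) and 3 Cul5 cKO (red) samples, with symbols for the replicate number, the mean as a horizontal line and the SD as a bar. Pim2 sits at 51.5 to 58.2 CPM in WT and 34.3 to 40.4 CPM in Cul5 cKO, Pim1 shows the opposite order with a smaller gap, and Bcl2l11 is spread from 8.63 to 34.4 CPM within WT.

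Compared per transcript length as TPM (abundance scaled to transcript length and library size), the 10 genes spanned a wide range of levels in WT cells. Bax was the highest at 197 ± 6.55 TPM (SD, n = 3), above Mcl1 at 164 ± 22.9 TPM. Mcl1, Bcl2l1 (156 ± 39.1 TPM) and Pim1 (147 ± 8.09 TPM) had overlapping ranges with their neighbour in the order. Bak1 at 86.4 ± 13.6 TPM, Pim2 at 43.3 ± 3.95 TPM and Bcl2 at 36.4 ± 0.745 TPM followed, each apart from the next. The BH3-only genes were the lowest, with Bbc3 at 12.3 ± 2.05 TPM, Bcl2l11 at 8.29 ± 4.38 TPM and Pmaip1 at 3.63 ± 0.734 TPM, and neighbouring ranges among them overlapped. In Cul5 cKO cells Bax (215 TPM) remained first and Pmaip1 (3.95 TPM) last. Pim1 stood second at 164 TPM, ahead of Bcl2l1 (158 TPM) and Mcl1 (145 TPM), while Pim2 (28.7 TPM) and Bcl2 (28.0 TPM) were next to each other.

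**Figure D2:**
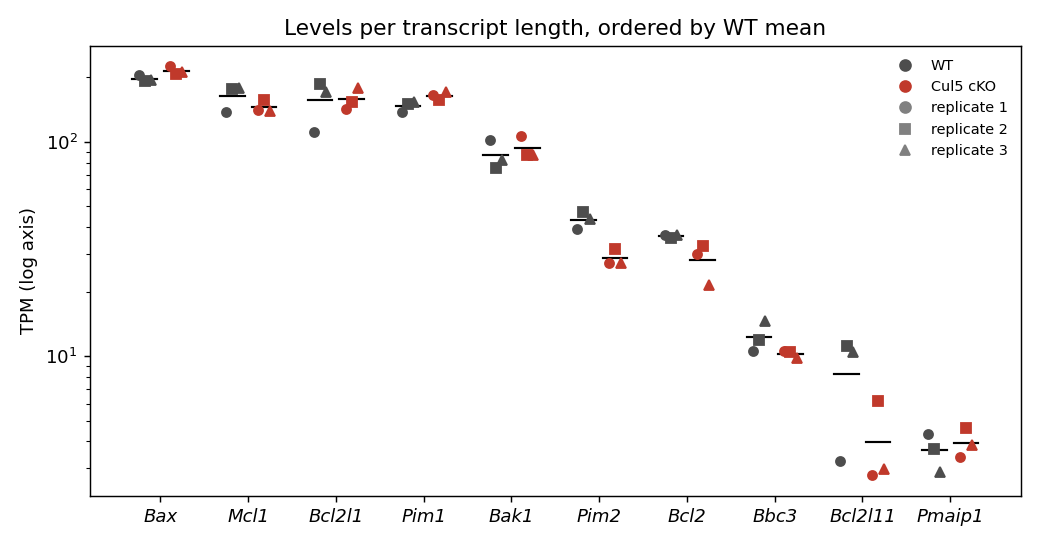
TPM (log axis) of the 10 genes, ordered by their WT mean, with 3 WT (grey) and 3 Cul5 cKO (red) samples per gene and the mean as a short line. The effectors, guardians and Pim1 lie above the 3 BH3-only genes in both genotypes, and the Pim2 points of the genotypes are apart.

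Among the guardians, Bcl2 was the one whose genotypes did not overlap. It was at 187, 172 and 198 CPM in WT and at 150, 166 and 112 CPM in Cul5 cKO. The mean was 186 ± 13.2 CPM in WT against 143 ± 28.0 CPM (SD, n = 3), and Cul5 cKO replicate 3 was the lowest. The fitted log2 fold change was -0.38 (SE 0.14, 95% interval -0.71 to -0.04), with an unadjusted p of 0.0315 and an adjusted p of 0.193 in edgeR's test, so the difference did not pass. Without Cul5 cKO replicate 3, the library with the highest B cell marker sum, the change was -0.23 (adjusted p = 0.397, edgeR). The part of those markers in the Bcl2 value was not tested. The transcript Bcl2-201 carried 97.7% to 98.8% of the Bcl2 TPM in every sample.

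Bcl2l1, which encodes BCL-XL and is induced by CD28 costimulation, was at 146, 229 and 201 CPM in WT and at 172, 199 and 231 CPM in Cul5 cKO. The genotypes overlapped and replicate 1 was the lowest of each. The log2 fold change was 0.06 (SE 0.18, 95% interval -0.35 to 0.48, edgeR adjusted p = 0.871), and its sign turned in 3 of 15 alternative analyses. Mcl1, the short-lived guardian that T cells need at every stage, was at 236, 283 and 271 CPM in WT and at 235, 268 and 250 CPM in Cul5 cKO. These values overlapped as well, with a log2 fold change of -0.07 (SE 0.09, 95% interval -0.27 to 0.13, edgeR adjusted p = 0.690). Of the Mcl1 TPM, 51.4% to 67.6% lay in the longer transcript Mcl1-201 and the rest in Mcl1-202, whose share was highest in the shallow WT replicate 3.

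The effectors Bax and Bak1 had small positive fitted changes. Bax was at 105, 94.8 and 103 CPM in WT and at 116, 106 and 111 CPM in Cul5 cKO, with every Cul5 cKO value above every WT value. The gap was narrow, with a log2 fold change of 0.14 (SE 0.07, 95% interval -0.03 to 0.30, edgeR adjusted p = 0.310). Bak1 was at 127, 89.9 and 99.4 CPM in WT and at 143, 107 and 116 CPM in Cul5 cKO, where replicate 1 was the highest of each genotype and the genotypes overlapped (log2 fold change 0.20, SE 0.16, edgeR adjusted p = 0.493). Transcripts annotated as targets of nonsense-mediated decay held 63.6% to 82.9% of the Bak1 TPM, so that most of the counted Bak1 RNA was not assigned to its annotated coding transcripts. Bak1 also shares 263 bases at 100% identity with Ggnbp1 on the opposite strand, which was at 1.82 to 4.30 CPM. For Bcl2 and Pim1 the annotation places an antisense gene over their exons. Whether counting used the strand is not given in the sources used here, so reads from such pairs cannot be told apart.

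The BH3-only genes included the member with the widest spread. Bcl2l11 was at 8.63, 30.7 and 34.4 CPM in WT and at 6.91, 17.2 and 9.03 CPM in Cul5 cKO. WT replicate 1 lay among the Cul5 cKO values, and replicate 1 was the lowest of each genotype. The mean in Cul5 cKO was 45% of that in WT (11.1 ± 5.45 against 24.6 ± 13.9 CPM, SD, n = 3), and the log2 fold change was -1.10 (SE 0.54, 95% interval -2.36 to 0.16, edgeR adjusted p = 0.291). With replicates 2 and 3 alone the change was -1.29 with an adjusted p of 0.0455 (edgeR), in a comparison where 8.83% of all genes passed. It did not pass in the other 14 alternative analyses, where the adjusted p was as high as 0.573. A single coding transcript carried 57.4% to 84.4% of the gene's TPM.

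Bbc3, which encodes the p53 and FOXO target PUMA, was at 9.14, 10.1 and 9.87 CPM in WT and at 8.08, 7.54 and 8.67 CPM in Cul5 cKO. All 3 Cul5 cKO values were the lower ones, and the log2 fold change was -0.26 (SE 0.13, edgeR adjusted p = 0.298). Pmaip1, which encodes NOXA, the partner that takes MCL1 to degradation, was at 8.03, 6.53 and 5.57 CPM in WT and at 6.21, 8.24 and 7.29 CPM in Cul5 cKO. These overlapped, with a log2 fold change of 0.08 (SE 0.19, edgeR adjusted p = 0.844). The sign for Pmaip1 turned in 2 of 15 alternative analyses.

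The PIM kinases differed from each other in direction. Pim2 was at 51.5, 58.2 and 57.9 CPM in WT and at 34.3, 40.4 and 35.9 CPM in Cul5 cKO. The highest Cul5 cKO value was below the lowest WT value, and the mean fell from 55.9 ± 3.79 to 36.9 ± 3.20 CPM (SD, n = 3), or 66.0% of WT. The log2 fold change was -0.60 (SE 0.09, 95% interval -0.81 to -0.39), with an unadjusted p of 0.000239 and an adjusted p of 0.0347 in edgeR's test, which placed Pim2 at rank 89 of all genes by p. The coding transcript Pim2-201 held 90.2% to 94.5% of the TPM. It was at 37.0, 43.9 and 40.3 TPM in WT and at 24.6, 28.9 and 25.4 TPM in Cul5 cKO.

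The size of the Pim2 difference changed little with the samples used, while the adjusted p depended on them. Over 15 alternative analyses the log2 fold change stayed between -0.66 and -0.54 and the unadjusted p at or below 0.00193. It passed at an adjusted p under 0.05 in 8 of them, among them DESeq2 (adjusted p = 0.000148, where 5.37% of all genes passed) and a fit with the replicate number as a block (adjusted p = 0.00654, 6.56% of all genes). It did not pass with limma on the gene-level table (adjusted p = 0.141), where 0.0356% of all genes did. Of the WT samples, leaving out replicate 2 gave 0.153 and leaving out replicate 3 gave 0.162. Leaving out Cul5 cKO replicate 1, 2 or 3 gave 0.0623, 0.0678 and 0.177 (edgeR). Pim2 is X-linked and the labels give no sex of the mice. The Y-linked genes Ddx3y and Eif2s3y, which male cells express broadly, were at 0.219 CPM or lower in every sample of both genotypes.

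Pim1, the STAT-induced founding member of the family, was at 201, 211 and 214 CPM in WT and at 244, 236 and 257 CPM in Cul5 cKO. All 3 Cul5 cKO values were the higher ones, at 245 ± 10.7 CPM against 209 ± 6.89 CPM (SD, n = 3). The log2 fold change was 0.23 (SE 0.06, 95% interval 0.09 to 0.38), with an unadjusted p of 0.00601 and an adjusted p of 0.111 in edgeR's test. It passed in 1 of 15 alternative analyses, the one that gave replicate 1 of both genotypes a term of its own (adjusted p = 0.0360, edgeR), in which 13.1% of all genes passed. Within Pim1, the coding transcript Pim1-201 held 47.6% to 65.4% of the TPM and the retained-intron transcript Pim1-204 held 20.8% to 36.0%. Pim3, the remaining member of the kinase family, was at 40.0, 61.2 and 49.9 CPM in WT and at 57.0, 104 and 105 CPM in Cul5 cKO, where WT replicate 2 lay above Cul5 cKO replicate 1 (log2 fold change 0.81, SE 0.26, edgeR adjusted p = 0.145). Pim3 passed in 4 of 15 alternative analyses, among them DESeq2 (adjusted p = 0.0106) and replicates 2 and 3 alone (adjusted p = 0.0131, edgeR).

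**Figure D3:**
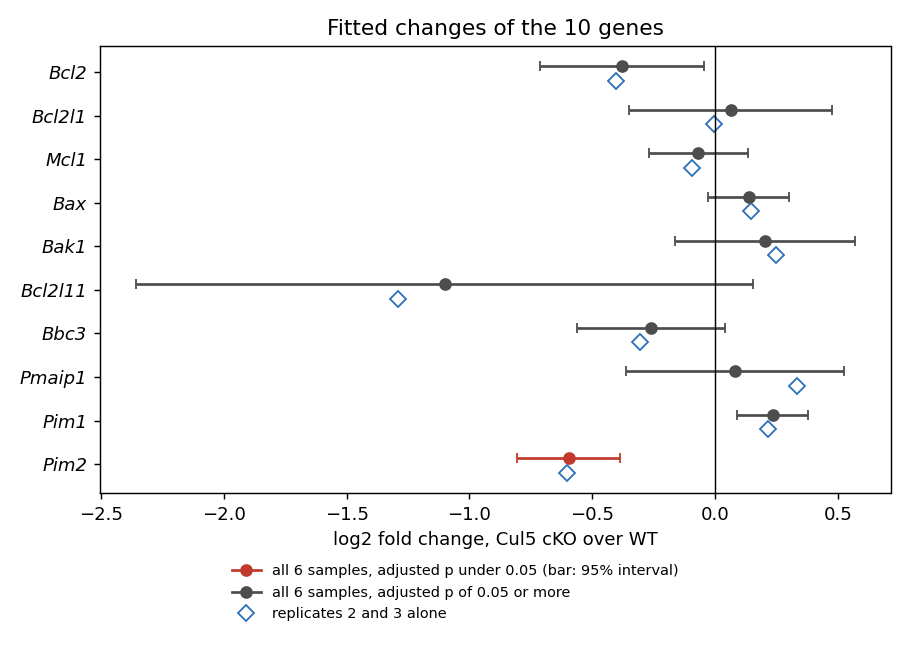
Fitted log2 fold changes of Cul5 cKO over WT with 95% intervals from all 6 samples (filled circles, red for an adjusted p under 0.05) and the fitted value from replicates 2 and 3 alone (open diamonds). The Pim2 interval runs from -0.81 to -0.39, the Bcl2l11 interval from -2.36 to 0.16; for Pmaip1 the diamond at 0.33 lies apart from the circle at 0.08.

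Ratios within a sample and summed levels set these genes against each other. As TPM, Pim1 was 3.50, 3.18 and 3.50 times Pim2 in WT and 6.03, 4.94 and 6.26 times Pim2 in Cul5 cKO, without overlap. The summed level of both kinases was 190 ± 11.5 TPM in WT and 192 ± 5.22 TPM in Cul5 cKO (SD, n = 3), with overlapping values, and Pim1 made up most of it. The Bcl2 to Bax ratio was 0.179, 0.185 and 0.189 in WT and 0.133, 0.157 and 0.102 in Cul5 cKO, also without overlap. The sum of the 3 guardians was 356 ± 61.1 TPM in WT and 331 ± 16.5 TPM in Cul5 cKO, with overlap. The sum of both effectors ran from 267 to 306 TPM in WT and from 295 to 331 TPM in Cul5 cKO. That of the 3 BH3-only genes was 24.3 ± 5.34 and 18.2 ± 2.67 TPM, and both sums overlapped. Guardians over effectors and BH3-only genes gave 1.17 ± 0.249 in WT and 1.02 ± 0.105 in Cul5 cKO, which overlapped as well. The Pim1 to Pim2 and Bcl2 to Bax ratios were bound to be apart, since the TPM of each pair lay apart in opposite directions. They add nothing to the separation of the single genes. These ratios and sums are descriptions and carry no test.

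Other genes of the same families and of the pathways around them were taken from lists of known members. None of the 3 other anti-apoptotic genes tested passed, with Bcl2l2 (BCL-W) at a log2 fold change of 0.24 (edgeR adjusted p = 0.278) and Bcl2a1b (a copy of A1, whose copies share reads) at -0.48 (adjusted p = 0.564). Of 6 other BH3-only genes tested, 0 passed, where 1.03% of all genes did, and 3 had fitted changes above 0. The mitophagy receptor gene Bnip3l was at 95.4, 71.7 and 86.8 CPM in WT and at 74.1, 51.9 and 49.9 CPM in Cul5 cKO (log2 fold change -0.53, edgeR adjusted p = 0.155). It passed in 4 of 15 alternative analyses, among them DESeq2 (adjusted p = 0.0409) and replicates 2 and 3 alone (adjusted p = 0.0266, edgeR). Bid, which links death receptors to mitochondria, was at 0.16 (edgeR adjusted p = 0.447). Bok, a BAX-like effector, was too low to be tested.

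Downstream of the mitochondria, none of 15 genes for the apoptosome, the caspases and their inhibitors passed, where 1.03% of all genes did. An unadjusted p under 0.05 in edgeR's test was reached by 7 of the 15, against 21.3% of all genes. Fitted changes were above 0 for 11 of them (median 0.05, against -0.0068 over all genes tested). The lowest p-values were those of the mitochondrial nuclease gene Endog (log2 fold change 0.39, edgeR adjusted p = 0.0937) and the protease gene Htra2 (0.31, adjusted p = 0.109), both of which passed in 1 of 15 alternative analyses, that with a replicate 1 term (adjusted p = 0.0264 and 0.0379). In the death receptor pathway 0 of 9 genes passed and 1 had an unadjusted p under 0.05 in edgeR's test, again against 21.3% of all genes (median 0.07). Ripk3, the kinase of necroptosis, was at 0.22 (edgeR adjusted p = 0.163) and the TRAIL receptor gene Tnfrsf10b at 0.25 (adjusted p = 0.236).

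Among 9 genes for substrates of PIM kinases, 1 rose and 0 fell (median 0.04), where 0.611% of all genes passed as higher. Of the 9, 4 had an unadjusted p under 0.05 in edgeR's test, against 21.3% of all genes. Phosphorylation of the substrates was not measured. Eif4ebp1, the translational repressor 4E-BP1, was at 42.2, 38.9 and 38.7 CPM in WT and at 53.8, 59.3 and 61.8 CPM in Cul5 cKO, without overlap (log2 fold change 0.54, SE 0.08, edgeR adjusted p = 0.0306). Eif4ebp1 passed in 9 of 15 alternative analyses, and its highest adjusted p was 0.235. It did not pass in 4 of the 6 analyses that left out a sample. With WT replicate 2 or 3 left out the adjusted p was 0.153 and 0.161, and with Cul5 cKO replicate 2 or 3 left out it was 0.114 and 0.160 (edgeR). Cdkn1b, the cell cycle inhibitor p27 and also a FOXO target, was at 72.4, 84.1 and 96.2 CPM in WT and at 56.8, 55.0 and 53 CPM in Cul5 cKO. The log2 fold change was -0.61 and lay just outside the threshold (edgeR adjusted p = 0.0506). Cdkn1b passed in 8 of 15 alternative analyses, among them library size scaling (adjusted p = 0.0440, edgeR), DESeq2 (adjusted p = 0.000132) and the fit without WT replicate 1 (adjusted p = 0.0266, edgeR), and its highest adjusted p was 0.212.

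FOXO factors drive a quiescence programme in T cells, and Bcl2l11 and Bbc3 are among their known targets. In a list of 13 other FOXO genes and targets, 12 had fitted changes below 0, with a median log2 fold change of -0.52 against -0.0068 over all genes tested. This list was chosen with earlier results of these data known and was not tested as a whole. The count that passed was 1 lower and 0 higher, where 0.418% of all genes passed as lower. An unadjusted p under 0.05 was reached by 6 of the 13, against 21.3% of all genes (edgeR). The gene that fell was Ccng2 (cyclin G2), at 33.7, 46.2 and 44.5 CPM in WT and at 20.8, 22.2 and 19.1 CPM in Cul5 cKO (log2 fold change -0.99, SE 0.14, edgeR adjusted p = 0.0245). Ccng2 passed in 8 of 15 alternative analyses, and its highest adjusted p was 0.183. It did not pass with WT replicate 2 or 3 left out (adjusted p = 0.105 and 0.121, edgeR) or with Cul5 cKO replicate 1, 2 or 3 left out (adjusted p = 0.0538, 0.0714 and 0.141). Genes of this list, like Bcl2l11, included several that were lowest in replicate 1 of WT.

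In a list of STAT5-responsive genes, the class to which PIM genes belong, fitted changes were above 0 in 9 of 9 cases. The list held no gene of the PIM or BCL2 families. Its count therefore left out Pim2 (-0.60), Bcl2 (-0.38), Bcl2l1 (0.06), Pim1 (0.23) and Pim3 (0.81), whose directions were mixed. The median of the 9 listed genes was 0.23, against -0.0068 over all genes tested. Of the 9, 0 passed, where 1.03% of all genes did. The list was chosen with earlier results of these data known. It was not tested as a whole, and its genes were read in the same 6 samples. An unadjusted p under 0.05 in edgeR's test was reached by 4 of the 9, against 21.3% of all genes. Osm, an IL-6 family cytokine gene, was at 40.0, 31.3 and 31.9 CPM in WT and at 53.6, 58.4 and 48.9 CPM in Cul5 cKO (log2 fold change 0.63, edgeR adjusted p = 0.0630), and it passed in 6 of 15 alternative analyses, among them DESeq2 (adjusted p = 0.000592). Socs1, a feedback inhibitor of cytokine receptors, was at 218, 199 and 210 CPM in WT and at 258, 246 and 233 CPM in Cul5 cKO (0.23, edgeR adjusted p = 0.123), and it passed in 1 of 15, with a replicate 1 term (adjusted p = 0.0314). Pim1, which did not pass, had a fitted change near this list's median, and Pim2 lay on the other side of 0. STAT5 activity was not measured, and a link of either gene to this list was not tested.

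Of 11 genes for p53, its inhibitors and its targets, 1 rose and 0 fell (median 0.18), where 0.611% of all genes passed as higher. Of the 11, 5 had an unadjusted p under 0.05 in edgeR's test, against 21.3% of all genes. The gene that rose was Sesn2, a stress-induced regulator of mTORC1. It was at 15.9, 12.9 and 15.4 CPM in WT and 25.2, 24.4 and 27.0 CPM in Cul5 cKO (log2 fold change 0.80, SE 0.11, edgeR adjusted p = 0.0255). Sesn2 passed in 9 of 15 alternative analyses. Leaving out WT replicate 2 or 3 gave an adjusted p of 0.101 and 0.111, and leaving out Cul5 cKO replicate 1, 2 or 3 gave 0.0515, 0.0743 and 0.141 (edgeR). Trp53inp1, an autophagy-linked p53 target, was at -0.87 (edgeR adjusted p = 0.0674) and passed in 6 of 15 alternative analyses, among them DESeq2 (adjusted p = 2.1e-05). All 5 ATF4 and CHOP stress genes had fitted changes above 0 (median 0.75, against -0.0068 over all genes tested). Of these 5, 0 passed, where 1.03% of all genes did. This list too was chosen with earlier results of these data known and was not tested as a whole. Atf3 was at 2.18, 7.70 and 5.57 CPM in WT and at 7.90, 23.5 and 31.0 CPM in Cul5 cKO (log2 fold change 2.04, SE 0.60, edgeR adjusted p = 0.131), and Atf4 at 0.40 (adjusted p = 0.147). With replicates 2 and 3 alone both passed (adjusted p = 0.0119 and 0.0293, edgeR).

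Ubiquitin enzymes that act on MCL1, NOXA or BIM were read last, since Cul5 is one of them. Of 11 genes (median -0.0092), the 1 that passed was Cul5, the gene deleted by design. The other 10 did not pass, where 1.03% of all genes did. None of those 10 had an unadjusted p under 0.05 in edgeR's test, against 21.3% of all genes. Btrc, a substrate receptor of another cullin ligase, was at -0.17 (edgeR adjusted p = 0.275). Rnf7 and Ube2f, the RING partner and the neddylation enzyme of CUL5, were named after their values had been seen. They were at 0.17 (adjusted p = 0.281) and -0.03 (adjusted p = 0.910, edgeR).

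**Figure D4:**
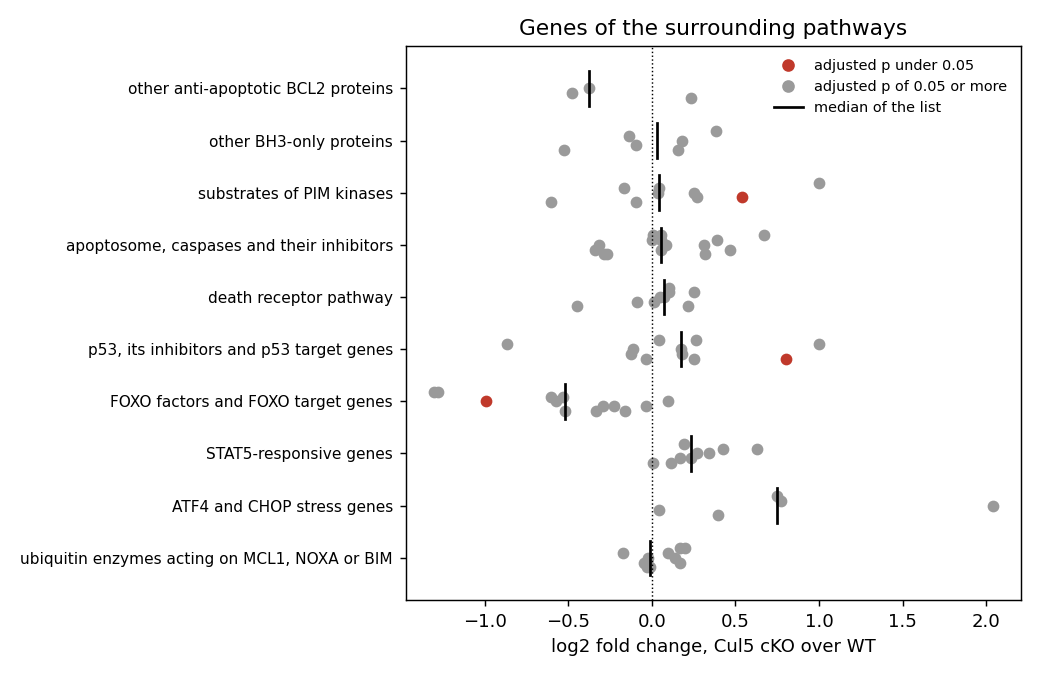
Fitted log2 fold changes of Cul5 cKO over WT for the genes of each list with 3 or more genes tested, red where the adjusted p was under 0.05, with the list's median as a black line. Cul5 is counted in the last list but not drawn. The FOXO list lies mostly below 0 (median -0.52) and the STAT5 list above it (median 0.23), with few single genes past the threshold. The lists were chosen with earlier results of these data known, and none was tested as a whole.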

How the data were processed

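Poly-A RNA was sequenced on a BGIseq500 as 50-base single reads. The authors quantified reads with kallisto 0.46.2 against a GRCm38/mm10 transcriptome and deposited, per sample, estimated counts and TPM for 119414 transcripts, with transcript lengths. The deposited gene-level table holds log2 CPM values that the authors normalized with TMM in edgeR 3.34.0, beside their own fold change and p-value columns, which were not used.

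Here, estimated counts were summed by gene with GENCODE release 21 (97.7% of transcripts matched), rounded, filtered with edgeR's filterByExpr and tested for Cul5 cKO against WT with TMM and the quasi-likelihood test (edgeR 4.0.16, R 4.3.3), with Benjamini-Hochberg adjustment over 12925 genes at 0.05. CPM are TMM-normalized, and TPM are summed over a gene's transcripts. Alternatives were DESeq2 1.42.0, limma 3.58.1 on the gene-level table, library size scaling, other filters, counts scaled from TPM, replicate terms and each sample left out. The 10 genes, the lists and the tests were chosen with earlier results of these data known. Named genes are the 10, Cul5, list genes with an adjusted p under 0.05 and, where a list has fewer than 2 of these, those with its lowest p up to 2. Libraries held 3944803 to 23454552 counts. A count of 3 equals 0.759 CPM in WT replicate 3 and 0.128 to 0.133 CPM elsewhere, which covers counting error only. P-values measure the spread between these samples.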

Additional observations from a re-analysis of the deposited data

How the results depend on the processing

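The number of genes that passed in all was 133, and it was 149 with library size scaling, 145 with at least 10 counts in every sample, 693 with DESeq2, 228 with no filter beyond 1 count, 60 with counts scaled from TPM, 4 with limma on the gene-level table, 1688 with a replicate 1 term, 1153 with replicates 2 and 3 alone and 2 to 316 when 1 sample was left out. Of the 10 genes, 1 passed, against 0 with counts scaled from TPM or limma, 2 with the replicate 1 term or with replicates 2 and 3 alone, and 0 to 1 with a sample left out. Pim2 was at -0.54 (adjusted p = 0.0858, edgeR) with counts scaled from TPM, at -0.57 (adjusted p = 0.141) with limma and between -0.66 and -0.54 with a sample left out. Bcl2l11 was at -1.29 with replicates 2 and 3 alone and between -1.57 and -0.83 with a sample left out, and Pim1 at 0.23 with the replicate 1 term. The sign turned for Bcl2l1 with replicates 2 and 3 alone (-0.0058), without WT replicate 1 (-0.10) and without Cul5 cKO replicate 3 (-0.05). The Bcl2l1 values ran from -0.10 to 0.22 over the 15 alternatives. For Pmaip1 the sign turned without WT replicate 3 or without Cul5 cKO replicate 2 (-0.0067 and -0.012). The Pmaip1 values ran from -0.012 to 0.33 over the 15 alternatives and up to 0.24 with a sample left out. The cause was not tested. Cul5 passed in all 15 alternatives.

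With the replicate number as a block, 848 genes passed (6.56%) and 1 of the 10 genes, Pim2, at -0.59. Of the list genes named as not passing, Pim3 (adjusted p = 0.0121, edgeR), Bnip3l (0.0224), Cdkn1b (0.0196), Trp53inp1 (0.0352), Osm (0.0181), Atf3 (0.00283) and Atf4 (0.0371) passed with the block. Deviations of same-numbered samples from their group means correlated at 0.37, 0.21 and 0.02 over 12925 genes. Those of WT and Cul5 cKO samples with different numbers correlated at -0.33 to 0.20. These values do not decide whether the numbers are a pairing. The labels do not describe one, so the main fit left the numbers out.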

Other observations

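Replicate 1 of both genotypes shared features across several of these genes. By CPM, Bcl2l11, Bcl2l1 and Mcl1 were lowest in replicate 1 of each genotype, and Bax and Bak1 were highest there. On other scales this failed in Cul5 cKO for Bax and Mcl1. The study's own log2 CPM of Bax was 6.319, 6.326 and 6.408 there, lowest in replicate 1. By TPM, Mcl1 was lowest in Cul5 cKO replicate 3 (139.5, against 140.0 in replicate 1). Klf2, a quiescence factor and FOXO target that was picked after its values had been seen, followed the order of Bcl2l11 within each genotype. It was at 40.1, 93.8 and 109 CPM in WT and at 21.2, 47.5 and 27.7 CPM in Cul5 cKO (edgeR adjusted p = 0.147). Pik3ip1, an inhibitor of PI3 kinase picked in the same way, was at 10.8, 21.2 and 26.6 CPM in WT and at 5.95, 10.2 and 7.20 CPM in Cul5 cKO (edgeR adjusted p = 0.112). Cdkn1a, the p53 target and cell cycle inhibitor p21, picked in the same way, was at 122, 67.6 and 77.4 CPM in WT and at 234, 150 and 154 CPM in Cul5 cKO, with replicate 1 the highest of each genotype (edgeR adjusted p = 0.109). What sets replicate 1 apart is not given in the sources used here.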
